A study of Mus musculus with 18 samples.

Results

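The senescence-associated cytokines described here are 10 genes, Il6, Il1a, Il1b, Il1rn, Il10, Tnf, Il15, Il18, Lif and Csf1. They were taken from a fixed list of names, and each was read by the probe set that carried its symbol alone and had the highest mean over the arrays. They make up 10 of the 18194 genes with a named probe set on the array. A value was called dim where it lay under 4.86, the median of all deposited log2 values, a range in which a probe set may not stand above background. Of the 10 genes, 7 reached that level on at least 3 arrays and were among the 11897 genes tested. Il1a, Il15 and Lif did not, and are given as values only.

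The cells were B-cell lymphomas that arose in Eµ-myc transgenic, Suv39h1-null mice on a C57/Bl6 background and were explanted from lymph nodes. All of them, the untreated cells included, were retrovirally transduced with Suv39h1-ERT2, a fusion of the histone H3 lysine methyltransferase that 4-OH-tamoxifen (4-OHT) activates, and with Bcl2, which blocks apoptosis. RNA of 3 lymphomas, 4146, 4936 and 5043, was hybridised to Affymetrix arrays in 6 groups. The untreated cells (n = 3), the cells treated for 5 days in vitro with Adriamycin (ADR, n = 3) and those treated for 5 days with ADR and 4-OHT (n = 3) were joined by outgrowth populations kept for a further 14 days in medium free of both agents. These were the outgrowth after ADR alone (n = 2), and cells FACS-sorted from the outgrowth after ADR and 4-OHT as morphologically big (n = 3) or small (n = 3). The ADR outgrowth of lymphoma 5043 had failed quality control, as its label says, and its array held no values. No sample received 4-OHT alone, so ADR with 4-OHT against ADR compares cells that differ in 4-OHT itself as well as in the activated fusion protein. The big and small cells were sorted and the ADR outgrowth was not.

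Senescent cells stop dividing but stay metabolically active, and many of them secrete a mix of cytokines, chemokines and proteases known as the senescence-associated secretory phenotype. Il-1α on the surface of such cells signals through the IL-1 receptor to NF-κB and C/EBPβ, which drive the transcription of Il6 and other secreted factors, and Il-6 can act back on the cell that made it. In B cells several of these cytokines, Il-6, Il-10 and TNF among them, are also made on activation without senescence.

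Of 10 named B-cell marker genes, 8 to 10 were not dim on each array, and Cd79a, Cd79b, Pax5, Cd22, Ebf1 and Blnk were above the level on all 17 arrays. Suv39h1 itself had 0 probe sets named for it alone and was not analysed here, so the deletion and the fusion were not checked from the RNA. The arrays of ADR 5 d in lymphoma 4936 and of the big and small cells of lymphoma 5043 stood apart from the other 14, with first principal component scores of 58.5 to 66.8 against at most 5.94. On the same 3 arrays the X-linked RNA Xist lay 5.70 to 5.99 log2 units above the median of its lymphoma, and on the ADR and 4-OHT array of lymphoma 4146 it lay at -3.49, and whether the RNA on these 4 arrays is that of the lymphoma on the label was not tested. The difference between the 3′ and the 5′ control probe sets of Actb, a measure of RNA integrity, was 1.39 to 1.65 in untreated cells, 0.56 to 1.17 after ADR, 1.17 to 1.51 after ADR and 4-OHT and 1.26 to 1.81 in the outgrowths, and its part in the results was not tested. Every probe set had the same median in each of the 3 lymphomas to within 1e-06 as deposited, so a level below is relative to its lymphoma and a dim mark depends on that centring.

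Promoter sequence was given for 8 of the 10 genes, while Il10 and Il15 had no entry. The 250 bases before the RefSeq start site of Il6, Csf1 and Il1b (RefSeq, GRCm38.p6) are printed 5′ to 3′ on the strand of the gene. Capitals mark the matches found on either strand to GGGAN followed by TTTCC (NF-κB), TGANTCA (AP-1), TGACGTCA (CRE) and TTGCNNAAT (C/EBP). Il6 and Csf1 are shown because their windows held the NF-κB letters and their ADR and 4-OHT arrays all lay above the untreated arrays, and Il1b because its ADR and 4-OHT arrays did likewise while its window held none of these 4 motifs.
Il6: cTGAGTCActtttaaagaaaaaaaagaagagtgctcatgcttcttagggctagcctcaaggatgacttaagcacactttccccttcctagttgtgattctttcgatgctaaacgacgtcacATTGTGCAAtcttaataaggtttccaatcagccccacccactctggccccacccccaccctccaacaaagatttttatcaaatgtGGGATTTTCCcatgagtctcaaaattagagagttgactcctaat
Csf1: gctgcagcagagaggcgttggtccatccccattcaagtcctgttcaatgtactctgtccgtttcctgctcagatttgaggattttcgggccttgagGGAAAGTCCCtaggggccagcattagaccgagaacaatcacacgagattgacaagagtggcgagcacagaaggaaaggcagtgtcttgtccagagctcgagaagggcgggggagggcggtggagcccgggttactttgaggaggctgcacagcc
Il1b: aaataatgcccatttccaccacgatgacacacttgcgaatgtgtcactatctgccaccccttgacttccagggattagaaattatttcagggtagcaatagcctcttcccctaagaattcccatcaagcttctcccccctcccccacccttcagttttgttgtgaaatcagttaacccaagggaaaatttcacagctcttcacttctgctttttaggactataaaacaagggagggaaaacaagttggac
The Il6 window is chr5:30012864-30013113 on the plus strand, and the gene follows at chr5:30013114-30019975. It held 1 match each to the AP-1 letters (249 to 243 bases before the start), to the C/EBP letters on the opposite strand (129 to 121 bases before) and to the NF-κB letters (44 to 35 bases before), and no matches overlapped. The Csf1 window, chr3:107760470-107760719 on the minus strand, held the NF-κB letters on the opposite strand, 154 to 145 bases before the start. The Il1b window is chr2:129371140-129371389 on the minus strand, and the letters TATAAA, searched on the strand of the gene only and not in capitals, stood 31 to 26 bases before the start. Of 32841 RefSeq windows of the same length, 0.356% held the NF-κB letters, 6.75% the AP-1, 2.11% the C/EBP, 1.55% the CRE and 7.59% the TATAAA letters. These matches describe letters in a window and were not tested as binding sites.

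**Figure D1:**
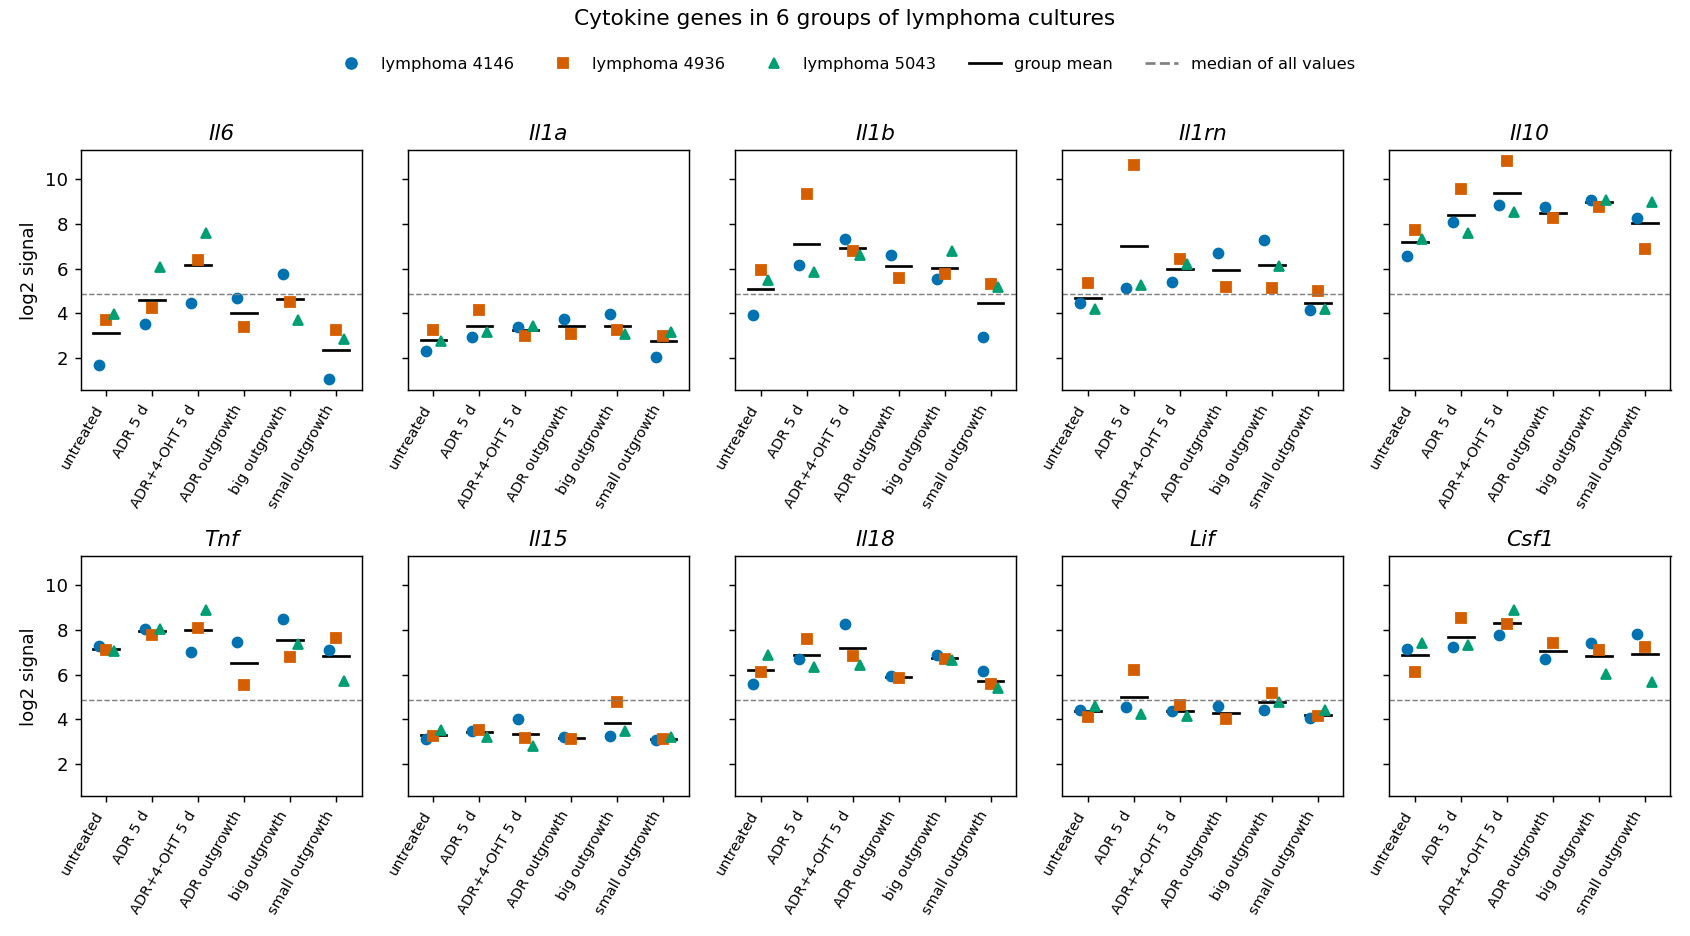
Deposited log2 signal of each of the 10 genes (vertical axis) in the 6 groups (horizontal axis), with 1 point per array and the lymphoma given by the marker. The dashed line at 4.86 is the level under which a value was called dim, which all arrays of Il1a and Il15, 15 of 17 of Lif and 13 of 17 of Il6 lay under.

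Il-6 binds a receptor that signals through gp130 to STAT3 and promotes the growth and differentiation of B cells and plasma cells. The log2 signal of Il6 in lymphomas 4146, 4936 and 5043 was 1.68, 3.71 and 3.99 in untreated cells, 3.51, 4.27 and 6.06 after ADR, and 4.46, 6.39 and 7.59 after ADR and 4-OHT. Of these 3 groups, each lymphoma had its lowest value in untreated cells and its highest after ADR and 4-OHT. In the outgrowths it was 4.67 and 3.40 after ADR alone (4146 and 4936), 5.75, 4.50 and 3.70 in big cells, and 1.06, 3.24 and 2.84 in small cells. Only 4 arrays were not dim, those of 5043 after ADR, of 4936 and 5043 after ADR and 4-OHT, and of the big cells of 4146. Il6 thus met the filter for testing only through groups in which it was high. Counts of members that include it are no support for a rise in those groups. By group mean the order ran from ADR and 4-OHT (6.15 ± 1.58, SD, n = 3) over big cells, ADR, ADR outgrowth and untreated cells to small cells (2.38 ± 1.16, SD, n = 3), and no neighbours in that order differed by more than the larger of their SDs. Lif, which signals through the same gp130 chain, was dim on 15 of 17 arrays and reached 6.23 after ADR and 5.17 in big cells, both in lymphoma 4936. The former is 1 of the 3 arrays that stood apart.

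The Il-1 family members differed in level and in the arrays that carried them. Il-1α, the membrane-bound alarmin of the family, was read by a probe set that was dim on all 17 arrays, at 2.07 to 4.14. Il1b, which encodes the secreted Il-1β that caspase-1 releases from its precursor, gave 3.93, 5.92 and 5.49 in untreated cells, 6.16, 9.33 and 5.85 after ADR, and 7.31, 6.78 and 6.64 after ADR and 4-OHT. All ADR and 4-OHT arrays lay above all untreated arrays, while the ADR group overlapped the untreated group and rested for its mean on lymphoma 4936. Il1b was at 6.63 and 5.61 in the ADR outgrowth, at 5.54, 5.77 and 6.78 in big cells and at 2.95, 5.33 and 5.19 in small cells, where every array lay below every big-cell array. In the order of group means only the step from ADR and 4-OHT (6.91 ± 0.35, SD, n = 3) to the ADR outgrowth (6.12 ± 0.72, SD, n = 2) exceeded the larger SD.

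Il1rn encodes the receptor antagonist that competes with Il-1α and Il-1β for the IL-1 receptor. Its signal was 4.49, 5.35 and 4.22 in untreated cells, 5.12, 10.66 and 5.26 after ADR, and 5.39, 6.43 and 6.20 after ADR and 4-OHT. The value of 10.66 belongs to lymphoma 4936 on an array that stood apart, and all 3 probe sets of Il1rn had their highest value there. The ADR outgrowth gave 6.70 and 5.16, the big cells 7.31, 5.12 and 6.15, and the small cells 4.17, 5.00 and 4.19. Small cells were again below all big cells, and in the order of group means only the step from the ADR outgrowth down to untreated cells exceeded the larger SD. Il18, an Il-1 family cytokine that caspase-1 also releases and that induces interferon-γ, was dim on none of the 17 arrays. It lay at 5.58 to 6.88 in untreated cells, 6.36 to 7.62 after ADR, 6.42 to 8.25 after ADR and 4-OHT, 5.88 to 5.93 in the ADR outgrowth, 6.68 to 6.89 in big cells and 5.42 to 6.15 in small cells. No neighbours in the order of its group means differed by more than the larger SD.

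Il10, which encodes an anti-inflammatory cytokine that regulatory B cells secrete, was above the dim level on all 17 arrays. Its signal was 6.59, 7.73 and 7.34 in untreated cells, 8.09, 9.59 and 7.60 after ADR, and 8.86, 10.81 and 8.52 after ADR and 4-OHT. Within each lymphoma the 3 groups had the order seen for Il6. It was 8.75 and 8.28 in the ADR outgrowth, 9.09, 8.76 and 9.09 in big cells, and 8.29, 6.88 and 8.98 in small cells. The untreated arrays of Il10 lay below all ADR and 4-OHT arrays, as for 15.2% of all genes, and below all big-cell arrays, as for 13.1%. Big cells (8.98 ± 0.19, SD, n = 3) differed from the ADR outgrowth (8.52 ± 0.34, SD, n = 2) by more than the larger SD, and no other neighbours did. The order from untreated over ADR to ADR and 4-OHT in all 3 lymphomas was met by 2 of the 7 members tested, Il6 and Il10, and by 273 of the 11897 genes tested (2.29%). For Il6 all 3 values of lymphoma 4146, and the untreated and ADR values of 4936, were dim. Those steps thus lay among values that may not stand above background. For both genes the order in 4936 used its ADR array, on which Xist lay at 5.70. That in 4146 used its ADR and 4-OHT array, with Xist at -3.49. The lymphoma label of these arrays was left in doubt by Xist, so only the remaining lymphoma met the order without such an array.

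**Figure D2:**
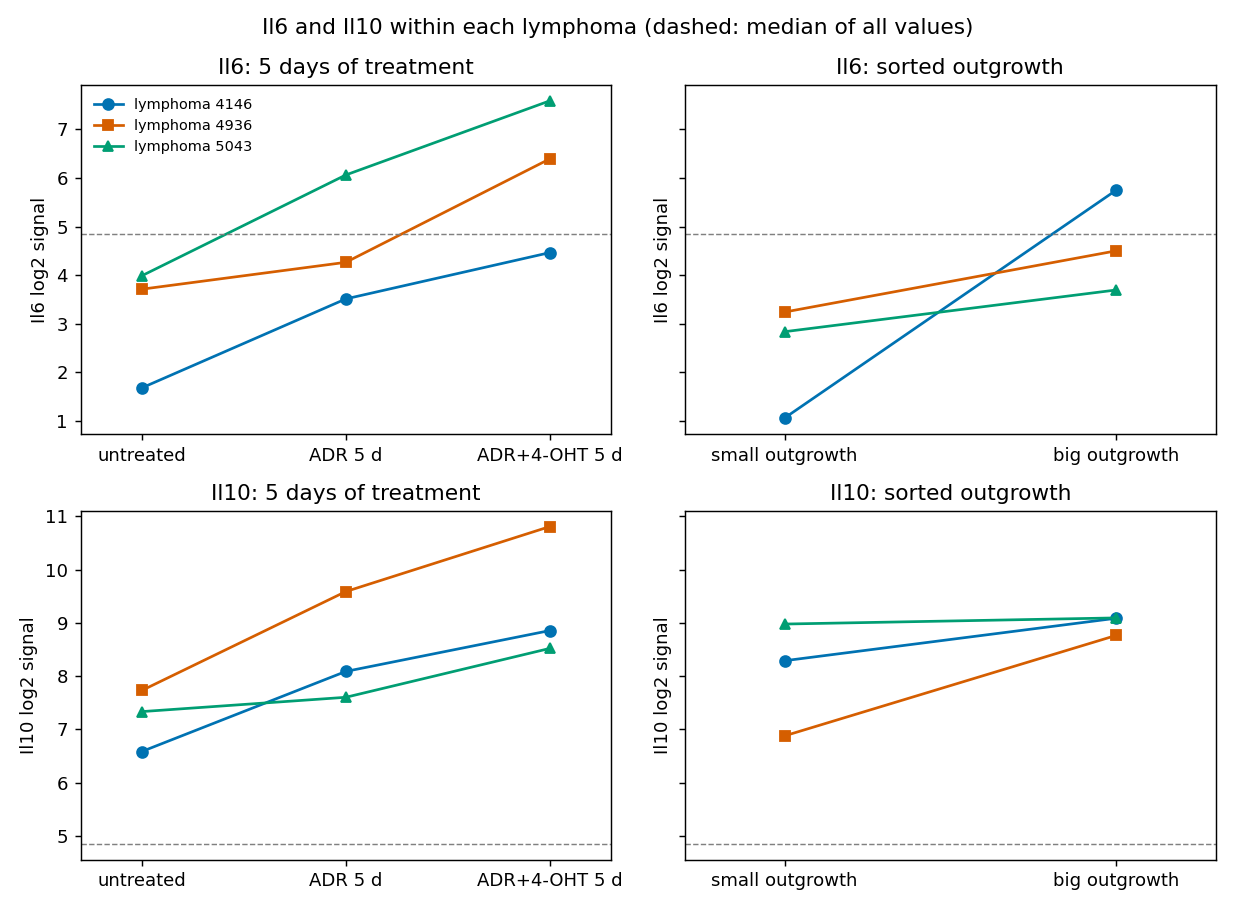
Log2 signal of Il6 and Il10 (vertical axes) in untreated, ADR and ADR and 4-OHT cells and, in separate panels, in small and big outgrowth cells. Within a panel a line joins the arrays of each lymphoma, and the level of 4.86 is dashed. The ADR outgrowth is not drawn. All 3 lymphomas step up from untreated to ADR to ADR and 4-OHT for both genes. The lymphoma label of the ADR array of 4936 and the ADR and 4-OHT array of 4146 was left in doubt by Xist. The Il6 values of untreated and small cells all lie under the dashed line.

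Tnf encodes tumour necrosis factor, a ligand that activates NF-κB through its receptors. It gave 7.27, 7.10 and 7.07 in untreated cells, 8.06, 7.80 and 8.07 after ADR, and 7.04, 8.11 and 8.90 after ADR and 4-OHT. The ADR arrays were close to each other and above all untreated arrays, whereas lymphoma 4146 after ADR and 4-OHT was below its untreated array. In the outgrowths Tnf lay at 7.47 and 5.54 after ADR, at 6.82 to 8.48 in big cells and at 5.72 to 7.64 in small cells. Csf1 encodes the growth factor of the monocyte and macrophage lineage, which binds the receptor Csf1r. Its signal was 7.14, 6.11 and 7.41 in untreated cells, 7.26, 8.53 and 7.34 after ADR, and 7.76, 8.27 and 8.88 after ADR and 4-OHT, where all arrays lay above all untreated arrays. It was 6.69 and 7.44 in the ADR outgrowth, 7.41, 7.10 and 6.05 in big cells and 7.84, 7.23 and 5.68 in small cells, and these groups overlapped with the untreated group. Il15, a cytokine that sustains NK cells and memory T cells, was dim on all 17 arrays, at 2.80 to 4.78.

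Against untreated cells, ADR for 5 days asks how these genes respond to the drug while Suv39h1 is not activated. All 7 tested members lay higher on average, as did 52.3% of all genes. Il1rn differed by 2.33 log2 units (SE 1.13), Il1b by 1.997 (SE 0.82), Il6 by 1.49 (SE 0.85) and Il10 by 1.21 (SE 0.68), and Tnf, Csf1 and Il18 by 0.69 to 0.83. None passed limma's moderated test with Benjamini-Hochberg adjustment, with adjusted p from 0.416 to 0.606, and 0 of the 11897 genes did (0% called). At an unadjusted p under 0.05 the test gave 1 member, Il1b, and 11.3% of all genes in either direction. The median of the members was 1.21 against 0.02 over all genes, and 5 of 7 were higher in every lymphoma, as were 21.8% of all genes. Only Tnf had groups that did not overlap (11.8% of all genes, higher). Without the ADR array of lymphoma 4936, the differences were 0.49 for Il1rn, 0.95 for Il1b and 0.66 for Il10. All untreated and 2 of the 3 ADR arrays of Il6 were dim, and with dim values set to 4.86 its differences were 0, 0 and 1.21 in lymphomas 4146, 4936 and 5043. Il1rn was dim on 2 of the 3 untreated arrays, and set likewise its differences were 0.27, 5.31 and 0.40.

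With 4-OHT added, the difference from untreated cells was 3.02 log2 units for Il6 (SE 0.85, adjusted p = 0.0812, limma with Benjamini-Hochberg adjustment) and 2.18 for Il10 (SE 0.68, adjusted p = 0.104), both higher in 3 of 3 lymphomas. Since every untreated Il6 array was dim, its size was also taken with dim values set to 4.86, which left differences of 0, 1.54 and 2.73 in lymphomas 4146, 4936 and 5043. Il1b differed by 1.80 (SE 0.82, adjusted p = 0.262), Csf1 by 1.42 (SE 0.59, adjusted p = 0.213) and Il1rn by 1.32 (SE 1.13, adjusted p = 0.590), again higher in 3 of 3 lymphomas. Il1rn was dim on 2 of the 3 untreated arrays, and with dim values set to 4.86 its differences were 0.54, 1.08 and 1.35. By another of its probe sets the Il1rn difference was 0.51. Tnf and Il18 differed by 0.87 and 0.98 and were higher in 2 of 3. No member passed in this comparison, in which limma called 350 genes (2.94%), and 3 members (Il6, Il10 and Csf1) had an unadjusted p under 0.05 against 19.2% of all genes. The 5 members higher in every lymphoma compare with 20.7% of all genes. The groups did not overlap for the same 5, namely Il6, Il1b, Il1rn, Il10 and Csf1, a state met by 15.2% of all genes in the higher direction. The members' median was 1.42 against 0.00 over all genes. Il6 was tested only because of arrays of treated or big cells, so the filter favoured its place in these counts.

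The calls in that comparison turned on which arrays were fitted and how they were weighted. With arrays weighted by their fit, Il6 and Il10 passed at adjusted p = 0.0154 and 0.0229 (limma), with differences of 3.46 and 2.47. Without the 3 arrays that stood apart Csf1 passed, at 1.42 (adjusted p = 0.0485, limma). These arrays are in neither group, so the difference stayed the same. Only the spread estimated over all groups fell, with an SE of 0.33 against 0.58. That pass therefore tells nothing further about the difference itself. When the ADR and 4-OHT array of lymphoma 4146 was left out as well, Il6 (3.46, adjusted p = 0.0418), Il10 (2.58, adjusted p = 0.0488) and Csf1 (1.69, adjusted p = 0.0265) passed. The Csf1 difference was 1.42 by the probe set used here and 0.74 and 0.13 by 2 of its other probe sets, so the probe sets did not give the same size. It was 0.84 without the untreated array of lymphoma 4936 and 0.90 without the ADR and 4-OHT array of 5043.

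**Figure D3:**
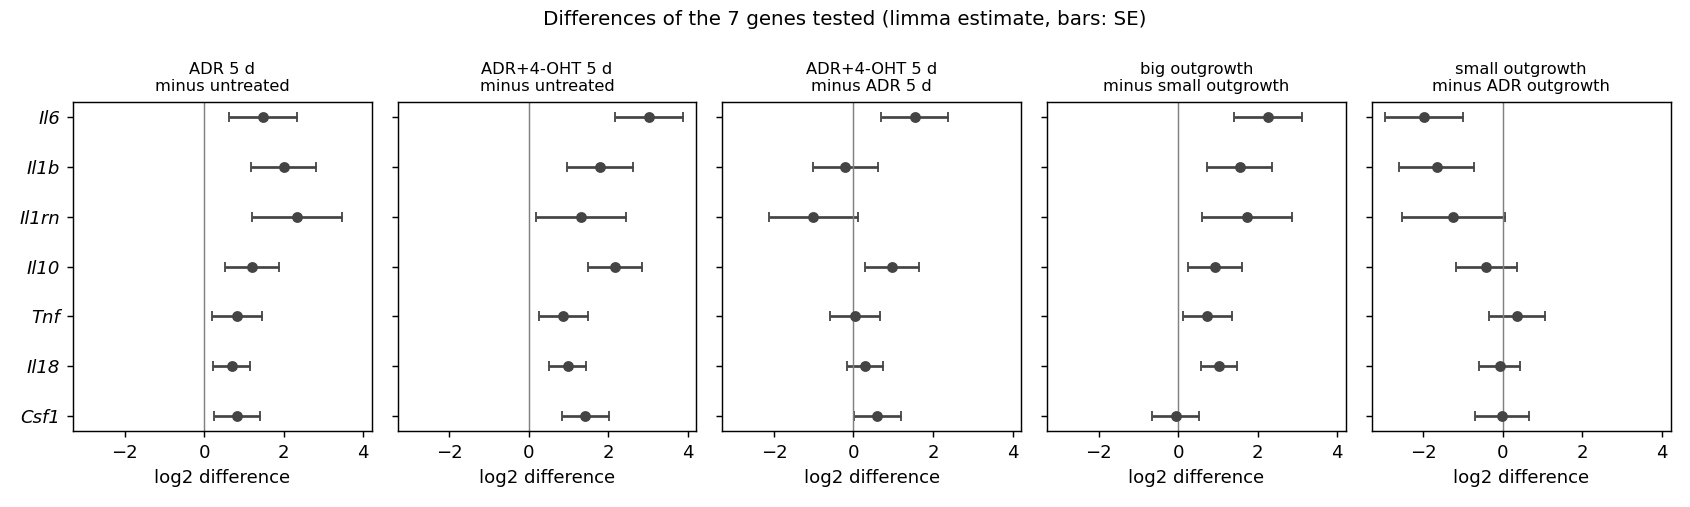
Log2 difference of the 7 tested genes (rows) in 5 comparisons (panels), as limma's estimate over the 17 arrays with its SE as a bar. All points lie to the right of 0 in the first and second panels, and Il6 has the largest difference in both panels of ADR and 4-OHT at day 5 and in that of big against small cells. Il6 was dim on all untreated and small-cell arrays and on 2 of the 3 big-cell arrays, so these differences rest in part on values that may not stand above background. Its arrays of small cells and of the ADR outgrowth were all dim, so its point there is no fold.

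Macrophage marker RNA moved in the same direction as the cytokines at day 5. The log2 summed signal of 18 macrophage markers was 11.5 to 12.1 in untreated cells, 12.2 to 16.2 after ADR and 12.99 to 14.9 after ADR and 4-OHT, with 5 to 8, 9 to 11 and 9 to 10 markers not dim per array. The sum adds unlogged signals, so a few strong genes carry it. Ctss alone lay at 11.2 to 12.9 over the 17 arrays, and the lysozyme genes Lyz1 and Lyz2 reached 15.3 and 14.5. The highest value of any other marker was 10.1 (Cd68). Among the 11 markers tested, 2 rose after ADR and 4-OHT, and all 11 lay above 0 there and after ADR, with medians of 1.54 and 2.17. Of all genes 50.3% and 52.3% lay above 0 in these comparisons. Mrc1, C1qa, C1qb, C1qc, Marco, Cd163 and Clec7a were dim on all 17 arrays, and Adgre1, a pan-macrophage marker, on 14. The highest sum, 16.2, was that of lymphoma 4936 after ADR, the array with the highest Il1b and Il1rn. In such bulk RNA, fewer cells of a type and less RNA per cell cannot be told apart, and the part of the macrophage marker RNA in the cytokine values was not tested. Fibroblast markers had sums of 8.28 to 8.997 in untreated cells, 10.4 to 12.0 after ADR and 8.72 to 9.84 after ADR and 4-OHT. NK-cell markers were dim throughout, and of 8 neutrophil markers 0 to 4 were not dim per array.

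**Figure D4:**
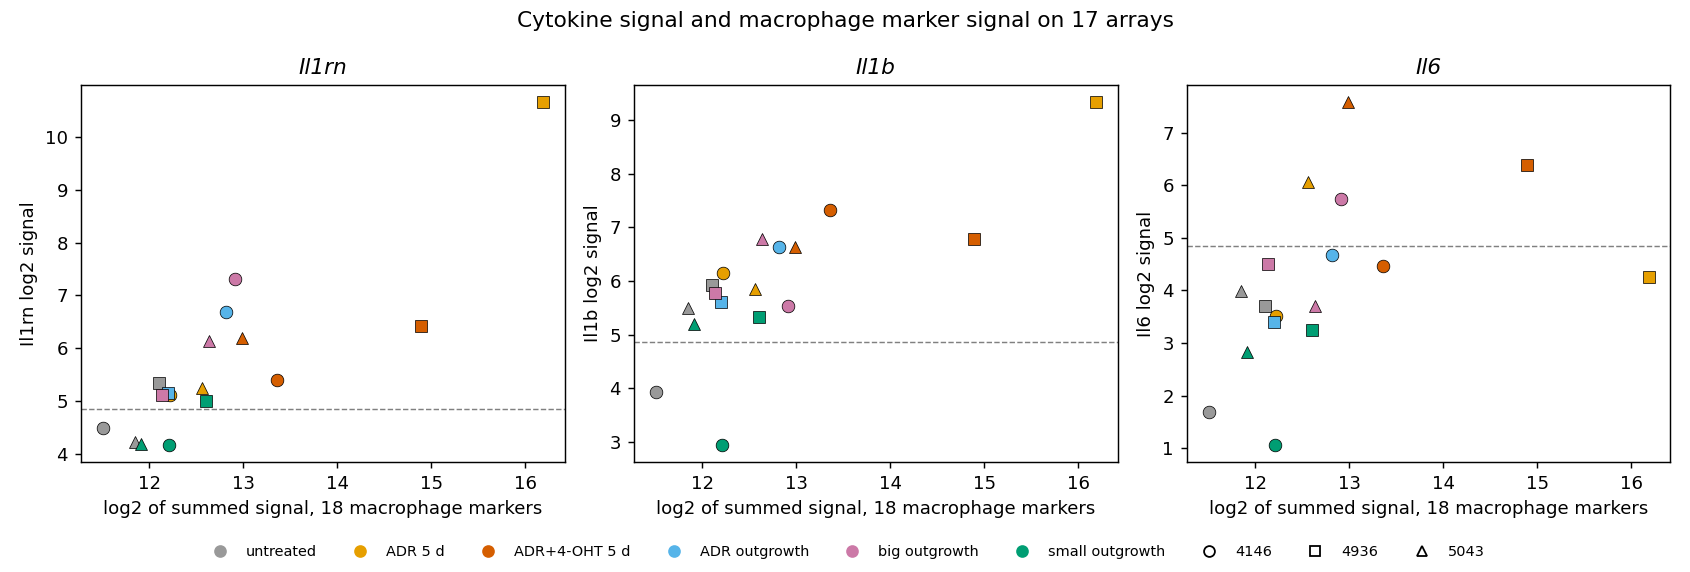
Log2 signal of Il1rn, Il1b and Il6 (vertical axes, 1 panel per gene) against the log2 summed signal of 18 macrophage markers (horizontal axis) on the 17 arrays, with 1 point per array. The macrophage sum is highest on the ADR array of lymphoma 4936 (16.2), which also has the highest Il1b and Il1rn. The highest Il6 is on the ADR and 4-OHT array of lymphoma 5043.

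Adding 4-OHT to ADR asks what changes in drug-treated cells with 4-OHT and the fusion protein it activates, which this comparison cannot tell apart. Il6 lay 1.54 log2 units higher (SE 0.85, adjusted p = 0.472, limma with Benjamini-Hochberg adjustment), with 0.95, 2.13 and 1.53 in the 3 lymphomas, and with dim values set to 4.86 the differences were 0, 1.54 and 1.53. Il10 was also higher in 3 of 3 lymphomas, by 0.77, 1.22 and 0.92. These were the 2 members of 7 that were higher in every lymphoma, as 16.9% of all genes were, and the groups of both overlapped. In lymphomas 4146 and 4936 the difference used an array whose lymphoma label was left in doubt by Xist. Il1rn lay at -1.01 (SE 1.13, adjusted p = 0.744), and without the ADR array of lymphoma 4936 it lay at 0.83. Il1b, Il10, Tnf, Il18 and Csf1 had differences between -0.20 and 0.97. No member and no other gene passed (0% called), 0 members had an unadjusted p under 0.05 against 12.5% of all genes, and the members' median was 0.29 against -0.02. This comparison shares its ADR and 4-OHT arrays with the preceding one and its ADR arrays with the first.

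Big and small cells were sorted from the same outgrowth cultures 14 days after ADR and 4-OHT were withdrawn. Big cells had the higher mean for 6 of the 7 members and for 46.7% of all genes. Il6 differed by 2.27 log2 units (SE 0.85, adjusted p = 0.369, limma with Benjamini-Hochberg adjustment), but with dim values set to 4.86 by 0.89, 0 and 0, since 1 of the 6 arrays was above that level. Il1rn differed by 1.74 (SE 1.13, adjusted p = 0.652), Il1b by 1.54 (SE 0.82, adjusted p = 0.556) and Il18 by 1.03 (SE 0.46, adjusted p = 0.462), each higher in 3 of 3 lymphomas. The groups did not overlap for these 4 genes, against 8.99% of all genes in the higher direction. Il10 lay 0.93 higher in 3 of 3 lymphomas with overlapping groups, Tnf 0.74 higher in 2 of 3, and Csf1 at -0.06. None passed (0% called over all genes), while Il6 and Il18 had an unadjusted p under 0.05, as did 10.4% of all genes. The members' median was 1.03 against -0.02. Without the big-cell array of lymphoma 4146, Il6 differed by 1.18 and Il1rn by 0.97. Il1rn differed by 2.76 without the big-cell array of 4936 and by 0.47 with the lowest of its probe sets. Il1rn was dim on 2 of the 3 small-cell arrays, and with dim values set to 4.86 its differences were 2.45, 0.12 and 1.29. Il1b differed by 0.94 without the small-cell array of 4146, which was dim. Fibroblast marker sums were 12.1 to 13.9 in big and 9.14 to 10.2 in small cells, with Bgn, Fn1, Sparc and Col1a2 among the markers above the dim level on most arrays and Pdgfrb, Postn and Loxl1 dim on all. Macrophage marker sums were 12.1 to 12.9 and 11.9 to 12.6, while all 11 macrophage markers tested lay higher in big cells, with a median of 1.17 against -0.02 over all genes and 0 called. The part of either marker list in the differences was not tested.

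Small cells and the ADR outgrowth, both grown out after treatment, were compared on 3 and 2 arrays. Il6 was dim on all 5 and has no fold. Il1b lay at -1.66 log2 units (SE 0.94, adjusted p = 0.463, limma with Benjamini-Hochberg adjustment) and Il1rn at -1.24 (SE 1.29, adjusted p = 0.683), and without the ADR outgrowth of lymphoma 4146 they lay at -0.43 and 0.13. Il1b lay at -0.9995 without the small-cell array of 4146, which was dim. Tnf lay at 0.35, and Il10, Il18 and Csf1 at -0.41, -0.08 and -0.02. No gene passed (0% called), and 0 members had an unadjusted p under 0.05 against 13.4% of all genes. Against untreated cells, the ADR outgrowth had Il10 at 1.24 (SE 0.77, adjusted p = 0.999), Il1b at 1.03 and Il1rn at 1.01. Without the ADR outgrowth array of lymphoma 4146, Il10 lay at 0.72 and Il1b and Il1rn at -0.20 and -0.36. The mean difference of small from untreated cells was under 1 log2 unit for each tested member, with Il1b at -0.63, Il1rn at -0.23 and Il10 at 0.83. Il6 was dim on all these arrays and has no fold. In lymphomas 4146, 4936 and 5043 Il10 differed by 1.70, -0.85 and 1.64, and Csf1 by 0.70, 1.12 and -1.73. Tnf differed by -0.18, 0.53 and -1.34 and Il18 by 0.57, -0.53 and -1.45. Il1b and Il1rn were lower in each lymphoma, in part among dim values. In both comparisons 0% of the genes were called, and 0 members had an unadjusted p under 0.05 against 4.49% and 8.30% of all genes.

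Big cells against untreated cells had Il10 at 1.76 log2 units (SE 0.68, adjusted p = 0.244, limma with Benjamini-Hochberg adjustment), higher in 3 of 3 lymphomas with groups that did not overlap (13.1% of all genes, higher). Il6 lay at 1.52 (SE 0.85, adjusted p = 0.392) and Il1rn at 1.51 (SE 1.13, adjusted p = 0.525), both higher in 2 of 3 lymphomas, and the other 4 between -0.03 and 0.92. Il6 lay at 2.61 without the 3 arrays that stood apart and at 0.44 without the big-cell array of lymphoma 4146. With dim values set to 4.86 its differences were 0.89, 0 and 0, as all untreated and 2 of the 3 big-cell arrays were dim. Il1rn lay at 0.74 without the big-cell array of 4146 and at 2.53 without that of 4936. It was dim on 2 of the 3 untreated arrays, and with dim values set to 4.86 its differences were 2.45, -0.23 and 1.29. No member was among the 49 genes called (0.412%), and Il10 alone had an unadjusted p under 0.05, as did 16.3% of all genes. Against the ADR and 4-OHT cultures from which they grew, big cells had Il6 at -1.50 (SE 0.85, adjusted p = 0.315) and Csf1 at -1.45 (SE 0.59, adjusted p = 0.163), Csf1 lower in all 3 lymphomas, and without the 3 arrays that stood apart these lay at -0.41 and -0.84. With dim values set to 4.86, the Il6 differences were 0.89, -1.54 and -2.73. By its 3 other probe sets Csf1 lay at 0.30, 0.50 and -0.47, and the probe set at 0.50 was dim on 15 of 17 arrays. In this comparison 478 genes were called (4.02%) and no member, with Csf1 alone at an unadjusted p under 0.05 against 23.4% of all genes. Of the 8 fibroblast markers tested, 5 rose in big cells against untreated cells (median 3.82) and 5 against ADR and 4-OHT (median 3.07). Of the 11 macrophage markers, 10 lay above 0 in big against untreated cells (median 1.23), as did 45.9% of all genes. Against ADR and 4-OHT, 3 did (median -0.43), as did 48.7% of all genes. The part of these markers in the cytokine values was not tested.

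Genes of the same pathways were followed in 5 lists that held 66 tested genes. No gene of the 66 passed limma's test with Benjamini-Hochberg adjustment in the 5 comparisons plotted for the members. At an unadjusted p under 0.05 there were 9 of the 66 after ADR (13.6% against 11.3% of all genes), 13 after ADR and 4-OHT (19.7% against 19.2%) and 2 between the treated groups (3.03% against 12.5%). Big against small cells gave 7 (10.6% against 10.4%) and small cells against the ADR outgrowth 7 (10.6% against 13.4%). Against untreated cells the ADR outgrowth gave 4 (6.06% against 4.49%), the small cells 4 (6.06% against 8.30%) and the big cells 11 (16.7% against 16.3%), and big cells against ADR and 4-OHT gave 13 (19.7% against 23.4%). Among 10 other ligands of the families, Csf2 (GM-CSF) lay 2.33 log2 units and Il33, a nuclear alarmin, 2.57 above untreated cells after ADR, and Lta (lymphotoxin-α) 1.40 above after ADR and 4-OHT. Csf2 lay 1.97 and Lta 1.39 higher in big than in small cells. Csf2 was dim on all 3 untreated, all 3 small-cell and 1 of the ADR arrays, Il33 on 2 of the 3 untreated arrays and Lta on 1 small-cell array, so these sizes rest in part on values that may not stand above background. The median of this list was 0.15 after ADR and 0.09 after ADR and 4-OHT.

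Among 14 receptors and decoys, Il6ra, the ligand-binding chain of the Il-6 receptor, lay 2.10 log2 units (SE 0.69, adjusted p = 0.119, limma) and Csf1r 1.97 (SE 0.71, adjusted p = 0.156) above untreated cells after ADR and 4-OHT. After ADR they lay 1.26 and 1.95 above. Csf1r is also on the macrophage marker list. The decoy receptor Il1r2 lay 1.21 higher in big than in small cells. Among 10 processing and inflammasome genes, Nlrp3, the inflammasome sensor that activates caspase-1, lay 0.68 above untreated cells after ADR and 0.66 after ADR and 4-OHT (SE 0.19, adjusted p = 0.0845). Adam17, the protease that sheds TNF, lay 0.52 higher after ADR and 4-OHT.

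Of 17 signalling genes, Irak3, an inhibitor of IL-1 receptor and Toll-like receptor signalling, lay 1.95 log2 units above untreated cells after ADR, and the kinase gene Irak2 1.01 above after ADR and 4-OHT. Map3k7, which encodes TAK1, fell by 1.62 (SE 0.23, adjusted p = 0.0181, limma) from the ADR and 4-OHT cultures to the big cells and was the only gene of the 66 that passed in any of the 9 comparisons. Of 15 response genes, Cebpd lay 1.45 and Icam1 1.24 (adjusted p = 0.119 and 0.0913, limma) above untreated cells after ADR and 4-OHT. Between big and small cells all 15 lay above 0, as did 46.7% of all genes. Their median was 0.65 against -0.02 over all genes, with Ier3 at 2.005 and Cish at 1.14. Ier3 lay at -2.94 (SE 1.001, adjusted p = 0.295, limma) in small cells against the ADR outgrowth.

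Genes with the pattern most like that of a member were taken as the 3 with the highest Pearson correlation over the 17 arrays, after centring on each lymphoma, as a description of arrays that share lymphomas. For Il6 these were C920009B18Rik (0.89), Dnajc5 (0.89) and Traf1 (0.88), and over the 13 arrays without the 4 doubted ones they stood at 0.86, 0.89 and 0.88. Il10 had B4galnt2, Ehd1 and Ocrl at 0.88, 0.88 and 0.87, with Ehd1 at 0.93 over 13 arrays. Il1b had Cd40 (0.89), Fosl2 (0.88) and Ddt (0.87), which lay at 0.78 to 0.79 over 13 arrays. Il1rn had C3ar1 (0.95), Pilra (0.93) and Gpr18 (0.93), of which C3ar1 lay at 0.89 over 13. Tnf had Nrros, Cd53 and Sem1 at 0.85 to 0.90, and at 0.79 to 0.88 over 13. Csf1 had Ehd4, Wdfy3 and Irs2 at 0.88 to 0.90, and at 0.70 to 0.84 over 13. Il18 had Cdon, Map7d1 and Uggt1 at 0.81 to 0.88, and at 0.51 to 0.67 over 13.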

How the data were processed

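RNA of 18 samples was hybridised to Affymetrix arrays and 17 arrays had values. The deposited values are log2 signals per probe set, made by the authors with RMA and Partek per the submitters' processing notes, which give no order of steps, and the removal of differences between lymphomas was found in the values and is not stated in the sources used here. Of 45101 probe sets, 34958 had 1 gene symbol, 932 several and 9211 none here. For genes with several probe sets the one of highest average signal was used, and genes at or above the median of all values (4.86) on at least 3 arrays were kept. All 17 arrays were fitted at once with limma 3.58.1 in R 4.3.3, with lymphoma as a block because the labels say that each lymphoma received both treatments, and p-values were adjusted by Benjamini-Hochberg over 11897 genes with a threshold of 0.05. Each replicate is a separate primary lymphoma, and the number of arrays limits the precision. The scripts were tested on simulated data.

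All 10 members are accounted for. A tested member was named in a comparison with its SE and adjusted p where its adjusted p was under 0.05 or its log2 difference was at least 1 in size, and from each list of pathway genes those that passed and up to 2 with the largest difference. The members, lists and tests were chosen with earlier results of these data known. Alternatives were array weights, no block, other filters and probe sets, and leaving out arrays. The sequences are RefSeq's.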

Additional observations from a re-analysis of the deposited data

Results flagged for a closer look

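Il10 lay higher after ADR and 4-OHT than after ADR in each lymphoma at day 5, by 0.77, 1.22 and 0.92 log2 units, and lower in small cells than in the ADR outgrowth in both lymphomas, at -0.46 and -1.40. The difference of the differences was -1.38 (SE 1.03, adjusted p = 0.683, limma with Benjamini-Hochberg adjustment over all genes). Big cells against the ADR outgrowth had the sign of day 5, at 0.33 and 0.49. Il6 had the same pattern of signs, with -3.52 (SE 1.29, adjusted p = 0.452, limma) for small cells, but its small-cell and ADR outgrowth arrays were all dim, so that value is no fold. With dim values set to 4.86, Il6 differed by 0, 1.54 and 1.53 at day 5 and by 0 and 0 between small cells and the ADR outgrowth, and no opposite sign was left. Limma called 0 genes for the small-cell contrast, in which small cells were sorted and the ADR outgrowth was not. The part of the sort was not tested. The day 5 differences in lymphomas 4146 and 4936 each used an array whose lymphoma label was left in doubt by Xist.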

How the results depend on the processing

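In 292 of 297 counts over the 9 comparisons and their other settings, 0 members were called, as was so for each of the 9 with no replicate block (0 called). For ADR and 4-OHT against untreated cells, array weights called 2 members (Il6, Il10). Leaving out the 3 arrays that stood apart, which are in neither group, called 1 (Csf1). Leaving out these and the ADR and 4-OHT array of 4146 called 3. Weights by REML, chosen after seeing the data and stopped before convergence, called 2 there and 1 for big against small cells (Il6, 3.27, adjusted p = 0.0414, limma). Over 33 settings the adjusted p of Il6 for ADR and 4-OHT against untreated cells ranged from 0.0111 to 0.319 and that of Il10 from 0.0137 to 0.400. Of 843 differences under other settings 820 kept sign and side, 9 passed the threshold and 14 changed sign. Il1rn for ADR and 4-OHT against ADR lay at 0.51 with array weights, 0.62 by REML, 0.85 without the 3 arrays, 1.33 without the 4, and 0.61 and 0.83 without lymphoma 4936 or its ADR array, in a range of -2.06 to 0.83 over the settings that left out 1 array or lymphoma. Without lymphoma 4146 or its ADR outgrowth array, Il1rn for small cells against the ADR outgrowth lay at 0.09 and 0.13 (range -2.61 to 0.13), and for the ADR outgrowth against untreated cells Il1b lay at -0.42 and -0.20 (range -0.42 to 2.32) and Il1rn at -0.28 and -0.36 (range -0.36 to 2.38). Csf1 for big cells against ADR and 4-OHT lay at 0.30 and 0.50 by other probe sets, the latter dim on 15 of 17 arrays, and at -0.47 by another. The cause of these changes was not tested. Dim values limit Il6 most, Il1rn in comparisons with untreated or small cells, and Il1a, Il15 and Lif throughout.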
